A study of Homo sapiens with 12 samples.

Results

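The genes described here are the aminoacyl-tRNA synthetases, which load each tRNA with its amino acid, and AIMP1, a scaffold protein of the complex that holds several of them. The list was fixed by gene name and held 34 genes, of which 27 had a probe set on the array that names that gene alone, among 11963 genes in all. These were 16 cytosolic enzymes, AIMP1 and 10 mitochondrial enzymes, each read from 1 probe set, the brightest of the gene by its average across all 12 arrays. FARSB, AIMP2, EEF1E1, PARS2 and VARS2 were not analysed here, nor were MARS1 and QARS1, whose probe sets also name a microRNA gene.

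RNA was measured on single-colour expression arrays in RCC4 cells, a renal cell carcinoma line. RCC4 lacks a working VHL protein, which marks the hypoxia-inducible factors for destruction. A total of 4 groups of 3 arrays were compared, and all came from this 1 line: cells with empty vector (Vec) and cells reconstituted with VHL (VHL), each in control full DMEM or in cystine-deprived DMEM for 6 h. The labels give 10% serum for both media and name it as dialysed only for the deprived medium, so removal of cystine and a change of serum cannot be told apart. The labels call the arrays biological replicates and do not say whether each came from its own culture, so p-values measure the spread between these arrays, which may be technical.

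In the cytosol each amino acid generally has a synthetase of its own, and several of these enzymes are bound together with scaffold proteins in the multisynthetase complex. Mitochondria translate their own few messages with a second, nuclear-encoded set of enzymes, whose symbols end in 2. GARS1 and KARS1 serve both compartments, and EPRS1 loads glutamate and proline from a single protein. Uncharged tRNA activates the kinase GCN2, which phosphorylates eIF2, and translation of the transcription factor ATF4 rises. ATF4 is known to induce many cytosolic synthetase genes through a composite site shared with C/EBP proteins, and it also induces genes of amino acid uptake and synthesis.

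The array quartiles lay close together, with medians between 7.12 and 7.18 on the log2 scale. Markers of the renal epithelium such as PAX8, KRT18 and CDH6 were at percentile 89.5 of gene means or above, while CDH16 was at 60.7 and LHX1 at 29.2. The blood, endothelial and fibroblast markers lay between the percentiles 0.6 (LUM) and 30.9 (DCN). The VHL probe set was dim, with group means between 5.85 and 5.99, and the difference between VHL and Vec cells was not called in control medium (0.14, limma adjusted p = 0.0532) or in deprived medium (-0.05, limma adjusted p = 0.475). In control medium the arrays were apart, at 5.80 to 5.88 in Vec and 5.95 to 6.02 in VHL cells. Its place in the transcript is not known here, so it cannot check the labels. The values come from bulk RNA, in which fewer cells with a transcript and less transcript per cell cannot be told apart.

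In the cystine-deprived medium many cytosolic enzymes were higher than in control medium, and no mitochondrial enzyme was called. The threshold was an adjusted p under 0.05 in limma, with adjustment over all 11963 genes, and a gene past it is termed called, while changes are in log2 units with the standard error of the fit after the ± sign. In Vec cells 10 of 16 cytosolic enzymes rose and none fell, or 62.5%, against 2.11% of all genes called higher, 2.06% lower and 4.18% in either direction. In VHL cells 9 of 16 rose and none fell, or 56.2%, against 6.16% of all genes called higher, 5.48% lower and 11.6% in either direction. GARS1, which rose, and KARS1, which was not called, serve both compartments and were counted as cytosolic. Without them 9 of 14 rose in Vec and 8 of 14 in VHL cells. Of the 10 mitochondrial enzymes 0 were called in either line in limma, and at an unadjusted p under 0.05 there were 1 in Vec cells (RARS2) and 3 in VHL cells (HARS2, LARS2 and YARS2). Of all 11963 genes, 1990 were under this unadjusted p in Vec and 3203 in VHL cells. Among the genes with a mean of at least 8, 3.62% were called higher in Vec and 8.67% in VHL cells. The cytosolic counts fell to 7 of 16 in Vec cells with only the compared groups, or when control replicate 3 or deprived replicate 2 or 3 of that line was left out, and to 7 of 16 in VHL cells without VHL control replicate 1 or 2 or VHL deprived replicate 1 or 2. The largest rises were those of WARS1, CARS1, GARS1 and SARS1, the enzymes for tryptophan, cysteine, glycine and serine.

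The median change of the 16 cytosolic enzymes was 0.255 in Vec cells and 0.214 in VHL cells. For the 10 mitochondrial enzymes it was -0.002 and -0.009. Over all 11963 genes the medians were 0.006 and 0.014, and over the 5712 genes with a mean of at least 8 they were -0.004 in both lines. The mitochondrial medians therefore lay near that of all genes, and the cytosolic ones above it. The classes also differed in brightness. Means over the 12 arrays ran from 9.28 (FARSA) to 13.43 (KARS1) for cytosolic enzymes. For mitochondrial ones they ran from 4.23 (RARS2) to 11.93 (IARS2), and a part of brightness in the contrast was not tested.

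**Figure D1:**
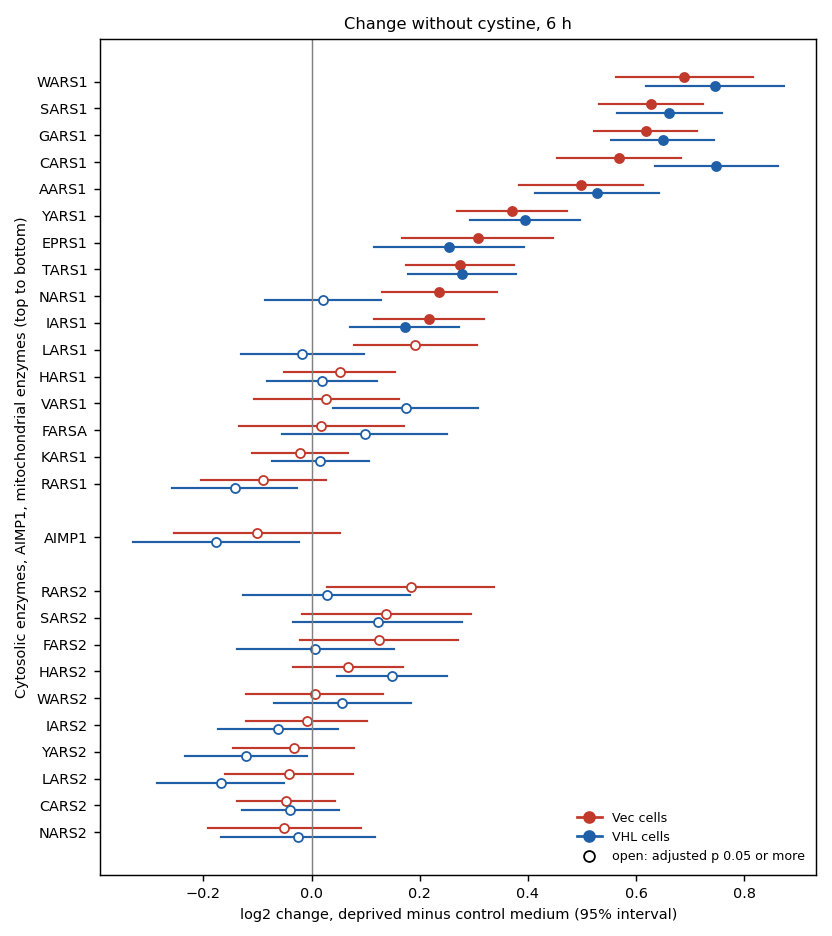
Log2 change without cystine (deprived minus control medium, x axis) for each of the 27 genes, in Vec cells (red) and VHL cells (blue), with bars for the 95% interval of the fit and filled points for adjusted p under 0.05. The 10 filled genes are all cytosolic enzymes, with changes up to 0.69 in Vec and 0.75 in VHL cells, while the points of the mitochondrial enzymes run from -0.05 to 0.18 in Vec and from -0.17 to 0.15 in VHL cells.

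Since several of the cytosolic enzymes rose together, the promoters of all 27 genes were searched for the C/EBP-ATF response element, the kind of site through which ATF4 acts on amino acid response genes. The element was written as TGATGNAAN, or NTTNCATCA on the other strand, where N is any base, and no other motif was searched. RefSeq promoter windows of 250 bases before to 50 bases after each listed start (GRCh38.p14) matched 24 of the 27 genes, all but LARS1, VARS1 and YARS1. The stretches of 30 bases around each match found are given 5′ to 3′ on the strand of the gene, with the 9 matching letters in capitals, to show which synthetase genes carry the letters and how alike the sites are.

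AARS1 (chr16:70289675-70289704, minus strand): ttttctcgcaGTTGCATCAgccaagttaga
CARS1 (chr11:3057407-3057436, minus strand): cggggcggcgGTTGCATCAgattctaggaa
GARS1 (chr7:30594834-30594863, plus strand): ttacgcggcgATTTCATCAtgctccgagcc
IARS1 (chr9:92293692-92293721, minus strand): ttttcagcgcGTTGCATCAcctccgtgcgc
NARS1 (chr18:57621803-57621832, minus strand): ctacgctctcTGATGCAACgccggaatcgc
TARS1 (chr5:33440956-33440985, plus strand): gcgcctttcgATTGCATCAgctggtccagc
YARS2 (chr12:32756075-32756104, minus strand): tccacactgcTGATGGAAAaattaagttta

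In the 250 bases before the start, 4 of the 24 genes held a match (16.7%), against 3.87% of all 27305 genes in the promoter table and 3% of those on the array. These were AARS1, 188 bases before the start, IARS1, 14 bases before, GARS1, 34 bases before the second of its 2 listed starts, and YARS2, 197 bases before. Over the whole window of 300 bases the count was 7 of 24 (29.2%) against 4.45% of all genes and 3.42% of those on the array. The match of CARS1 began 3 bases before the start, that of TARS1 1 base after one of its 2 starts and that of NARS1 14 bases after. Among the 9 genes with a window that rose in at least 1 line, 3 held a match before the start and 6 in the whole window. Among the other 15 genes 1 did, YARS2, and none of the 4 cytosolic enzymes that were not called. AARS1, CARS1 and IARS1 held the same 9 letters, GTTGCATCA, and NARS1 held their reverse complement. WARS1, SARS1 and EPRS1 rose with no match in their windows. A match is a description of letters and not of binding, a gene with several listed starts had more bases searched, and the genes were compared after their changes were known.

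CARS1, the cytosolic enzyme that loads cysteine, rose in both lines. In Vec cells it read 11.82, 11.76 and 11.85 in control medium and 12.39, 12.46 and 12.29 in deprived medium. In VHL cells it read 11.33, 11.33 and 11.38 in control medium and 12.13, 12.09 and 12.06 in deprived medium. The deprived arrays stood above the control arrays in each line, with no overlap, as was the case for 11.9% of all genes in Vec and 16.5% in VHL cells. CARS1 rose 1.48-fold in the Vec line (0.57 ± 0.05, limma adjusted p = 3.94e-05, n = 3 per group) and 1.68-fold in the VHL line (0.75 ± 0.05, limma adjusted p = 1.51e-06). Its second probe set gave 0.67 and 0.79, so both probe sets rose.

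WARS1, the tryptophan enzyme, also known for induction by interferon, had the largest rise of these genes in Vec cells. Its values there were 9.41, 9.49 and 9.55 in control and 10.10, 10.30 and 10.13 in deprived medium. Those in VHL cells were 9.37, 9.37 and 9.43 in control and 10.13, 10.12 and 10.17 in deprived medium. The lines started and ended at similar levels, and no array of one medium overlapped the other. The rise was 1.61-fold in Vec cells (0.69 ± 0.06, limma adjusted p = 1.75e-05) and 1.68-fold in VHL cells (0.75 ± 0.06, limma adjusted p = 4.74e-06). Its second probe set gave 0.52 and 0.55.

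SARS1, the serine enzyme, which also loads the selenocysteine tRNA with serine, read 11.22, 11.20 and 11.25 in Vec control and 11.81, 11.89 and 11.85 in Vec deprived arrays. In the VHL line it read 10.58, 10.58 and 10.66 in control and 11.30, 11.27 and 11.24 in deprived medium. The VHL arrays without cystine thus lay at the level of the Vec arrays in full medium. SARS1 changed by 0.63 ± 0.05 in Vec cells (limma adjusted p = 3.34e-06) and by 0.66 ± 0.05 in VHL cells (limma adjusted p = 9.57e-07), and it ranked 15th and 27th by p among all genes.

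GARS1, the glycine enzyme of both cytosol and mitochondria, read 12.77, 12.70 and 12.73 in Vec control and 13.35, 13.40 and 13.31 in Vec deprived arrays. Its VHL values were 12.74, 12.76 and 12.80 in control and 13.40, 13.42 and 13.43 in deprived medium. Both lines had nearly the same levels in each medium, and the media did not overlap. The changes were 0.62 ± 0.04 in Vec (limma adjusted p = 3.34e-06) and 0.65 ± 0.04 in the VHL line (limma adjusted p = 9.57e-07). KARS1, the lysine enzyme and the other one that serves both compartments, gave -0.02 in Vec (95% interval -0.11 to 0.07) and 0.02 in VHL cells (-0.07 to 0.11), and neither was called.

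AARS1, the alanine enzyme, read 10.56, 10.48 and 10.50 in Vec control and 10.95, 11.06 and 11.03 in Vec deprived arrays. In VHL cells the values were 11, 11.10 and 11.15, and 11.66, 11.58 and 11.59. Deprived Vec cells reached the level of VHL cells in full medium, and VHL cells rose from there. The changes were 0.50 ± 0.05 (limma adjusted p = 0.00012) and 0.53 ± 0.05 (limma adjusted p = 4.42e-05). YARS1, the tyrosine enzyme, read 12.88, 12.81 and 12.79 in Vec control and 13.19, 13.25 and 13.15 in Vec deprived arrays, then 12.41, 12.43 and 12.47 in VHL control and 12.83, 12.87 and 12.79 in VHL deprived arrays. YARS1 rose by 0.37 ± 0.05 in Vec (limma adjusted p = 0.000584) and by 0.39 ± 0.05 in VHL cells (limma adjusted p = 0.000183).

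TARS1, the threonine enzyme, rose by about the same amount in both lines. Its arrays read 11.47, 11.49 and 11.46 in Vec control, 11.73, 11.73 and 11.79 in Vec deprived, 11.47, 11.59 and 11.53 in VHL control and 11.83, 11.84 and 11.76 in VHL deprived cells. The change was 0.27 ± 0.05 in Vec (limma adjusted p = 0.00505) and 0.28 ± 0.05 in the VHL line (limma adjusted p = 0.00222). The calls of TARS1, CARS1, WARS1, SARS1, GARS1, AARS1 and YARS1 held in both lines under every alternative that could be run for them, with adjusted p-values up to 0.0255.

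**Figure D2:**
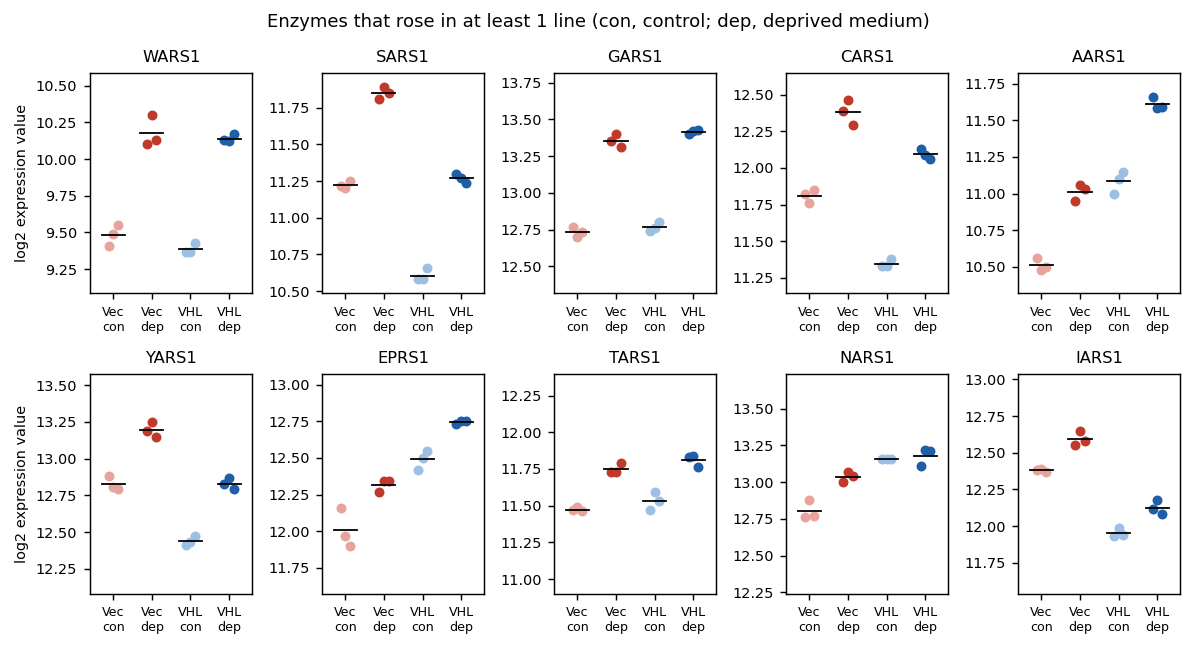
Log2 expression values (y axis, each panel 1.5 log2 units high) of the 10 enzymes that rose in at least 1 line, one point per array and a line for the mean of each group of 3. For WARS1, SARS1, GARS1, CARS1 and AARS1 the deprived arrays of each line lie clear of its control arrays, and NARS1 lies between 13.11 and 13.22 in all VHL arrays.

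NARS1, the asparagine enzyme, was called in Vec cells alone. Its arrays read 12.76, 12.88 and 12.77 in Vec control and 13.00, 13.07 and 13.04 in Vec deprived cells, a change of 0.24 ± 0.05 (limma adjusted p = 0.0187). In VHL cells it read 13.16 on each of the 3 control arrays and 13.11, 13.22 and 13.21 on the deprived ones, a change of 0.02 ± 0.05 (limma adjusted p = 0.834). The difference between these responses was -0.21 (95% interval -0.37 to -0.06), with limma adjusted p = 0.346, so a dependence on VHL was not shown. The Vec call of NARS1 was lost when control replicate 1 or 3 or deprived replicate 2 or 3 of that line was left out (adjusted p up to 0.079), or with only the compared groups in the fit (0.0588).

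Of the enzymes of the multisynthetase complex, 5 were measured and 2 of them, EPRS1 and IARS1, rose in each line. Among the 11 measured cytosolic enzymes outside the complex 8 rose in Vec and 7 in VHL cells. The median change was 0.19 inside and 0.37 outside the complex in Vec cells, and 0.02 and 0.39 in VHL cells. With so few enzymes in the complex these are descriptions of the groups. By catalytic fold, 4 of 7 class I and 5 of 8 class II cytosolic enzymes rose in Vec cells and 4 of each in VHL cells, with EPRS1, which holds both folds, left out of this count.

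EPRS1, the glutamate and proline enzyme, read 12.16, 11.97 and 11.90 in Vec control and 12.27, 12.34 and 12.34 in Vec deprived arrays. In VHL cells it read 12.42, 12.50 and 12.55 in control and 12.73, 12.75 and 12.75 in deprived medium. The change was 0.31 ± 0.06 in Vec (limma adjusted p = 0.0188) and 0.25 ± 0.06 in the VHL line (limma adjusted p = 0.0238), and its other probe sets gave 0.46 and 0.45 in Vec and 0.32 and 0.25 in VHL cells. The Vec call was lost when replicate 2 or 3 of either Vec group was left out, and with only the compared groups (adjusted p up to 0.0731). The VHL call was lost without VHL control replicate 1 or 2 or any VHL deprived replicate (up to 0.0952).

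IARS1, the isoleucine enzyme, read 12.38, 12.39 and 12.37 in Vec control and 12.55, 12.65 and 12.58 in Vec deprived arrays. Its VHL values were 11.93, 11.99 and 11.94 in control and 12.12, 12.18 and 12.08 in deprived medium. The groups did not overlap, and the rises were small, at 0.22 ± 0.05 (limma adjusted p = 0.0212) and 0.17 ± 0.05 (limma adjusted p = 0.0318). The Vec call was lost with only the compared groups or without any Vec array but deprived replicate 1 (adjusted p up to 0.0934). The VHL call was lost with median centring, with only the compared groups or without any VHL array but deprived replicate 3 (up to 0.109).

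LARS1, the leucine enzyme, known as well for its part in leucine sensing by mTORC1, read 10.43, 10.43 and 10.46 in Vec control and 10.56, 10.68 and 10.66 in Vec deprived arrays. In VHL cells it read 10.44, 10.47 and 10.37 in control and 10.33, 10.47 and 10.43 in deprived medium. The media did not overlap in Vec cells and overlapped in VHL cells, but neither change was called, at 0.19 ± 0.05 (limma adjusted p = 0.062) and -0.02 ± 0.05 (limma adjusted p = 0.881). In Vec cells LARS1 was called with quantile normalization (adjusted p = 0.0289), without the dim genes (0.0379), with trend and robust moderation (0.0155) and without VHL deprived replicate 1 (0.0495).

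The remaining cytosolic enzymes were not called on deprivation. RARS1, the arginine enzyme, read 11.56, 11.61 and 11.55 in Vec control and 11.52, 11.51 and 11.42 in Vec deprived arrays. In VHL cells it read 11.52, 11.37 and 11.48 in control and 11.35, 11.34 and 11.25 in deprived medium. The deprived arrays were the lower ones in both lines, with no overlap, as for 10.7% of all genes in Vec and 14% in VHL cells. Its changes were -0.09 (limma adjusted p = 0.448) and -0.14 (limma adjusted p = 0.108), and the one in VHL cells was called with trend and robust moderation (0.0348).

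VARS1, the valine enzyme, gave 0.03 in Vec (limma adjusted p = 0.887) and 0.17 in the VHL line (limma adjusted p = 0.0898), and the latter was called with trend and robust moderation (0.0348). HARS1, the histidine enzyme, gave 0.05 and 0.02, and FARSA, the catalytic subunit of the phenylalanine enzyme, 0.02 and 0.10. KARS1 read 13.33, 13.34, 13.31, 13.32, 13.32 and 13.26 on the Vec arrays and 13.55, 13.50, 13.55, 13.55, 13.54 and 13.56 on the VHL arrays, control arrays first. HARS1 read 11.09, 11.05, 11.06, 11.12, 11.17 and 11.07 on the Vec arrays and 10.86, 10.77, 10.89, 10.87, 10.83 and 10.87 on the VHL arrays, in the same order. For both genes the lines differed and the media overlapped. AIMP1 gave -0.10 (limma adjusted p = 0.536) and -0.18 (limma adjusted p = 0.128), and its other probe set 0.01 and -0.09.

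The mitochondrial enzymes stayed close to their control values. In Vec cells their changes ran from -0.05 for NARS2 to 0.18 for RARS2, and in VHL cells from -0.17 for LARS2 to 0.15 for HARS2. CARS2, the mitochondrial cysteine enzyme, known also for making cysteine persulfide, read 10.49, 10.50 and 10.52 in Vec control and 10.44, 10.49 and 10.44 in Vec deprived arrays. In VHL cells it read 10.06, 10.00 and 10.01 in control and 10.01, 10.00 and 9.95 in deprived medium. The change of CARS2 was -0.05 (95% interval -0.14 to 0.04) in Vec and -0.04 (-0.13 to 0.05) in VHL cells. Both intervals lie far below the rise of CARS1.

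HARS2, the mitochondrial histidine enzyme, read 9.96, 9.99 and 10.08 in Vec control, 10.08, 10.05 and 10.09 in Vec deprived, 10.05, 10.11 and 10.16 in VHL control and 10.25, 10.26 and 10.26 in VHL deprived cells. Its change was 0.07 in Vec and 0.15 ± 0.05 in VHL cells (limma adjusted p = 0.0592). LARS2, the mitochondrial leucine enzyme, read 8.51, 8.57 and 8.55 in Vec control, 8.47, 8.53 and 8.50 in Vec deprived, 8.20, 8.10 and 8.13 in VHL control and 7.86, 8 and 8.06 in VHL deprived cells. It gave -0.04 in Vec and -0.17 ± 0.06 in VHL cells (limma adjusted p = 0.066), while its second probe set gave 0.01 in VHL cells. These are the mitochondrial enzymes that other settings called in VHL cells, HARS2 with adjusted p-values down to 0.0277 and LARS2 down to 0.0381.

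FARS2, which loads phenylalanine, read 9.04, 9.16 and 8.97 in Vec control, 9.17, 9.2 and 9.18 in Vec deprived, 9.53, 9.33 and 9.42 in VHL control and 9.33, 9.44 and 9.53 in VHL deprived cells. IARS2, for isoleucine, read 11.63, 11.71 and 11.60, then 11.57, 11.69 and 11.65 in the same order of Vec groups, and 12.30, 12.27 and 12.19, then 12.23, 12.19 and 12.16 in the VHL groups. WARS2, for tryptophan, read 8.04, 7.91 and 7.85, then 7.98, 7.91 and 7.94 in Vec cells, and 8.04, 8.07 and 8.03, then 8.11, 8.01 and 8.19 in VHL cells. None of the 3 was called on deprivation. RARS2, for arginine, has only dim probe sets, and its main one read 4.24, 4.25 and 4.17, then 4.49, 4.36 and 4.36 in Vec cells, and 4.03, 4.10 and 4.25, then 4.08, 4.09 and 4.30 in VHL cells. Its mean lies under 5.95, the bound below which genes are termed dim here, and readings this dim do not tell a stable transcript from one that is barely measured. SARS2 gave 0.14 and 0.12, NARS2 -0.05 and -0.03, and YARS2 -0.03 and -0.12, in Vec and VHL cells.

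**Figure D3:**
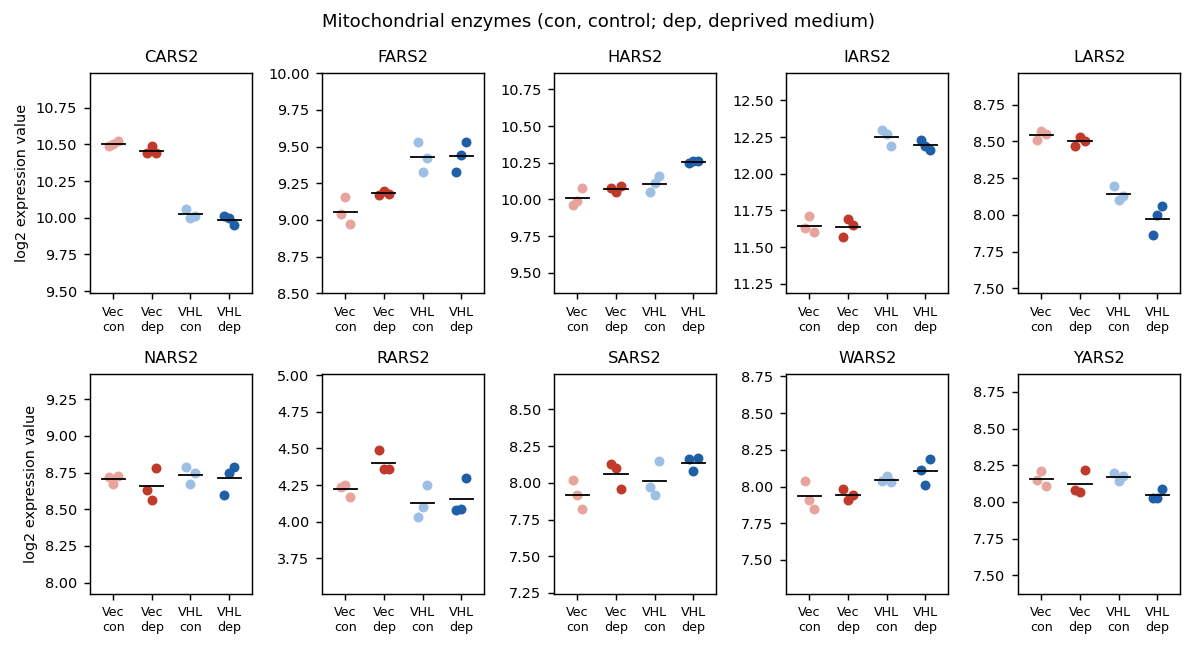
Log2 expression values (y axis, each panel 1.5 log2 units high) of the 10 mitochondrial enzymes, one point per array and a line for the mean of each group of 3. The step between lines is larger than the step between media for CARS2, IARS2, LARS2 and FARS2.

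Whether the cytosolic enzyme responded more than the mitochondrial one for the same amino acid was asked for 10 pairs. On each array the mitochondrial log2 value was subtracted from the cytosolic one, and the deprived and control arrays were compared by a two-sided exact permutation test of the medium within each line, over both lines together. The smallest p that its 400 arrangements can give is 0.005, and p-values were adjusted over the 10 pairs. The cytosolic member rose relative to its mitochondrial partner in 7 pairs, fell relative to it in 1, and 2 were not called. The test was added after the changes of the enzymes were seen. Pairs of other genes were not tested, so these counts have no share over other pairs beside them. A difference of this kind shows unequal change and does not compare levels between probe sets.

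The cysteine pair moved furthest apart, by 0.70 as the mean of both lines (0.62 in Vec and 0.79 in VHL cells, exact permutation p = 0.005, adjusted p = 0.00833). The tryptophan pair WARS1 and WARS2 gave 0.69, the serine pair 0.51 and the tyrosine pair 0.46. Smaller shifts were found for isoleucine, at 0.23, and leucine, at 0.19. All of these had the same p, the smallest possible, and in each of them the deprived and control arrays were apart in both lines. Of single genes, 11.9% were apart upward and 10.7% downward in Vec cells, and 16.5% and 14% in VHL cells. For leucine in VHL cells the gap was under the rounding, with the nearest control and deprived arrays both at 0.082. In that line LARS1 gave -0.02 and LARS2 -0.17, neither called, and the second LARS2 probe set gave 0.01. The leucine shift in VHL cells thus rests on 1 LARS2 probe set and not on a rise of LARS1.

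The asparagine pair gave 0.17 (exact permutation p = 0.025, adjusted p = 0.0312), with 0.29 in Vec and 0.05 in VHL cells, and it missed the threshold in 6 of 16 alternatives. The arginine pair went the other way, at -0.22 (exact permutation p = 0.025, adjusted p = 0.0312), but it rests on the dim RARS2 probe set and was lost without VHL control replicate 1 or VHL deprived replicate 3 (adjusted p = 0.0562 each). Neither the histidine pair (-0.07, exact permutation p = 0.115) nor the phenylalanine pair (-0.01, exact permutation p = 0.96) was called.

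**Figure D4:**
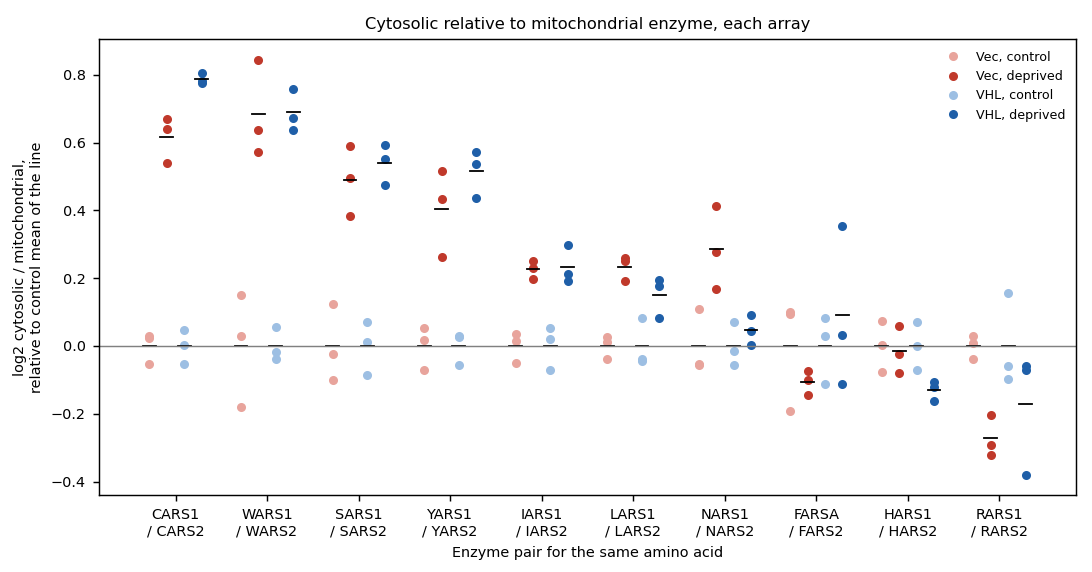
Log2 ratio of cytosolic to mitochondrial enzyme (y axis, relative to the mean of the control arrays of the same line) for 10 enzyme pairs, one point per array and a short line for each group mean. The deprived arrays lie above the control arrays in both lines for the cysteine, tryptophan, serine, tyrosine, isoleucine and leucine pairs (for leucine in VHL cells the nearest arrays meet at 0.082), and in Vec cells they lie below them for the arginine pair.

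The responses of the lines were set side by side, since these comparisons share no arrays. A total of 9 enzymes rose in both lines, and NARS1 was the 1 called in a single line. Of 27 genes 25 changed in the same direction, and over these 27 genes the changes correlated at r = 0.94 and rho = 0.89, which describes genes measured on one platform and carries no p. Of the 27, 17 were called in neither line, and their signs are read as no direction. The share of all genes with the same direction in both lines was not computed. For the 16 cytosolic enzymes r was 0.94 and for the 10 mitochondrial ones 0.63. No gene of the 27 was called for a difference of response in limma, against 0.134% of all genes (0.00836% called lower). At an unadjusted p under 0.05 there were 1176 of all 11963 genes and 3 of the 27. These were CARS1, with a rise larger in VHL cells by 0.18 (95% interval 0.02 to 0.34, limma adjusted p = 0.46), LARS1, at -0.21 (-0.37 to -0.05, limma adjusted p = 0.383), and NARS1. For WARS1, SARS1 and GARS1 the differences were 0.06 (-0.12 to 0.24), 0.03 (-0.10 to 0.17) and 0.03 (-0.10 to 0.17). These intervals include 0, which does not show that the responses were equal.

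The lines themselves differed for many of these genes. In control medium 13 of 27 were called between VHL and Vec cells, 6 higher and 7 lower in VHL cells, or 48.1%, against 46.1% of all genes (23.1% higher and 23% lower) and 68.5% of the 5712 genes with a mean of at least 8, to which all of these genes but RARS2 belong. In deprived medium 18 of 27 were called, 8 higher and 10 lower, or 66.7%, against 47.2% of all genes (24.2% higher and 23% lower) and 69.5% of the genes with a mean of at least 8. The line calls of these genes were therefore no more frequent than those of other bright genes. Arrays of the lines were apart in control medium for 6 genes higher and 8 lower in VHL cells, against 26.7% and 26.5% of all genes, and in deprived medium for 8 higher and 10 lower, against 27.9% and 26.4%. The same 13 genes were called in both media, and LARS1, RARS1, HARS2, RARS2 and WARS2 in deprived medium alone. These contrasts share arrays with those of deprivation, and the vector and VHL cells are 1 pair of lines.

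SARS1 was 1.53-fold lower in VHL cells in control medium (-0.61 ± 0.05, limma adjusted p = 1.03e-07) and 1.49-fold lower in deprived medium. CARS1 was lower as well, with -0.46 ± 0.05 in control medium (limma adjusted p = 7.04e-06) and -0.28 in deprived medium (limma adjusted p = 0.000517). IARS1 gave -0.42 and -0.47, YARS1 -0.39 and -0.37, and HARS1 -0.23 and -0.26, in control and deprived medium. AARS1 was higher in VHL cells, by 0.57 and 0.60, EPRS1 by 0.48 and 0.43, NARS1 by 0.36 and 0.14, and KARS1 by 0.21 and 0.25. WARS1, TARS1 and GARS1, which rose on deprivation, were not called between the lines, with differences between -0.10 and 0.06. Levels of the enzymes thus stood in both directions between the lines, while the deprivation calls all pointed up.

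Mitochondrial enzymes differed between the lines as well. IARS2 was 1.52-fold higher in VHL cells in control medium (0.61 ± 0.05, limma adjusted p = 4.19e-07) and FARS2 1.29-fold higher (0.37 ± 0.07, limma adjusted p = 0.000425). CARS2 gave -0.48 ± 0.04 (limma adjusted p = 4.95e-07) and LARS2 -0.40 ± 0.06 (limma adjusted p = 3.59e-05). For isoleucine the cytosolic enzyme was lower and the mitochondrial one higher in VHL cells, while for cysteine both were lower. In deprived medium alone HARS2 gave 0.18 (limma adjusted p = 0.00616), WARS2 0.16 (limma adjusted p = 0.0357) and RARS2 -0.25 (limma adjusted p = 0.0113), with LARS1 at -0.22 (limma adjusted p = 0.00297) and RARS1 at -0.17 (limma adjusted p = 0.0167).

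Some of these calls depended on the setting. In control medium HARS2 was called with median centring (adjusted p = 0.0421), RARS1 with trend and robust moderation (0.0311) and WARS2 without Vec control replicate 1 (0.0377). In deprived medium other calls were lost. NARS1 was lost without any of 4 arrays, Vec deprived replicate 1 or 3 and VHL deprived replicate 2 or 3, and with only the compared groups (adjusted p up to 0.0964). WARS2 was lost without Vec deprived replicate 2 or 3 or VHL deprived replicate 1 or 3, and with only the compared groups (up to 0.149). RARS1 was lost with quantile normalization and without Vec deprived replicate 1 or 2 or VHL deprived replicate 3 (up to 0.0771). RARS2 was lost when its probe sets were averaged and without Vec deprived replicate 1 (up to 0.176). AIMP1 was called when its probe sets were averaged (-0.141, adjusted p = 0.0497) and without VHL deprived replicate 3 (0.0394).

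**Figure D5:**
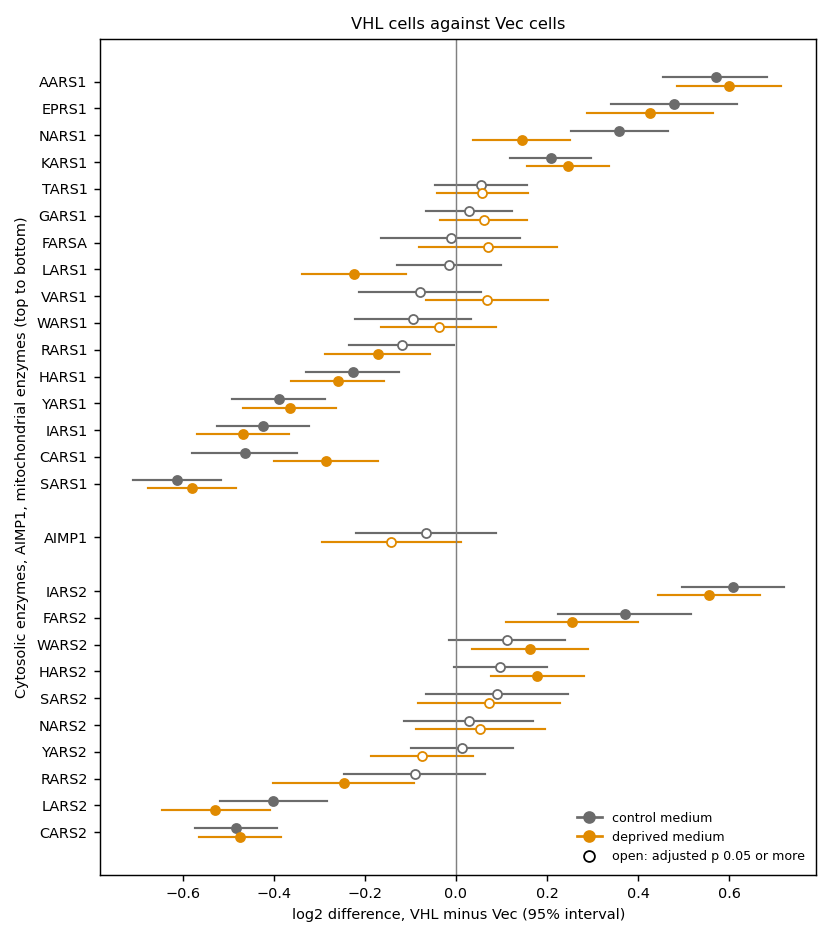
Log2 difference between VHL and Vec cells (VHL minus Vec, x axis) for the 27 genes in control medium (grey) and deprived medium (orange), with bars for the 95% interval and filled points for adjusted p under 0.05. SARS1, CARS1, IARS1, YARS1, CARS2 and LARS2 lie to the left of 0 and AARS1, EPRS1, NARS1, KARS1, IARS2 and FARS2 to the right in both media.

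Other genes around tRNA charging were counted from lists. Of 13 measured genes of amino acid sensing and ATF4 targets that load no tRNA, 9 rose in Vec and 10 in VHL cells and none fell, with medians of 0.78 and 0.92. ATF4 itself gave 0.11 in Vec (limma adjusted p = 0.17) and rose by 0.44 in VHL cells (limma adjusted p = 1.58e-05). Of the 13 genes 2 were called for a difference of response, ATF4 (0.33, limma adjusted p = 0.0416) and DDIT3 (0.60, limma adjusted p = 0.01). No synthetase was called for one. Between the lines, 7 of the 13 were called lower in VHL cells in control medium and 0 higher, against 46.1% of all genes called in either direction. In deprived medium 5 were lower and 1 higher, against 47.2% of all genes. The level of ATF4 was lower in VHL than in Vec cells in both media. The difference was -0.72 in control medium (limma adjusted p = 7.13e-09) and -0.39 in deprived medium (limma adjusted p = 2.62e-06). ASNS, which makes asparagine, rose by 1.48 and 1.55, and CHAC1, which breaks down glutathione, by 2.68 and 2.52, more than any synthetase.

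In the rest of translation few genes moved. Of 9 measured genes of tRNA export and elongation, 0 were called in Vec cells in limma and ABCE1, a ribosome recycling factor, fell in VHL cells (-0.26, limma adjusted p = 0.00922). Of 21 genes of mitochondrial translation, MTIF2, a mitochondrial initiation factor, rose in Vec cells (0.23, limma adjusted p = 0.0362) and none was called in VHL cells. Their medians were 0.008 and 0.02 for the first list and 0.015 and 0.005 for the second, near the medians of all genes. Of 11 further synthetase and amidotransferase genes listed, 3 were measured here and 0 were called on deprivation in limma in either line.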

How the data were processed

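Total RNA was labelled with biotin and hybridized to single-colour Affymetrix arrays, per the labels' protocols. The deposited values are log2 expression values, with 22215 probe sets on each array, and the scale was read from the values. Normalization by the authors is not given in the sources used here, and values were used as deposited. Of the probe sets, 19064 name 1 gene, and symbols were updated through gene identifiers from RefSeq (GRCh38.p14). The 27 genes had 39 such probe sets, and 10 genes had more than 1.

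The model held 1 mean per group, fitted in limma 3.58.1 (R 4.3.3) to the 12 arrays together (8 residual degrees of freedom, 12.7 after moderation), with two-sided moderated tests of 5 contrasts, adjusted by Benjamini-Hochberg over 11963 genes. The number of arrays limits the precision. The fit was tested on simulated data with independent noise around a common mean per gene and changes added only to Vec deprived arrays. That setting did not copy the line differences of these data. Every gene of the list is named, and values by array are given for each one called in any contrast. The genes and lists were chosen with earlier results of these data known, and the pair test was added after the changes were seen.

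Alternatives were quantile normalization, median centring, leaving out dim genes (mean under 5.95), averaging the probe sets of a gene, testing every probe set singly, leaving out probe sets ending in _x_at or _s_at, trend and robust moderation, only the compared groups, a replicate block and each array left out in turn.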

Additional observations from a re-analysis of the deposited data

How the results depend on the processing

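In Vec cells 10 cytosolic and 0 mitochondrial enzymes were called on deprivation, and in VHL cells 9 and 0. Over the alternatives that measured all 16 cytosolic enzymes their count, in either direction, ran from 7 to 11 in each line. The 11 in VHL cells came with trend and robust moderation, which added VARS1, higher, and RARS1, lower. When probe sets with the suffix _x_at or _s_at were left out, only 10 cytosolic enzymes were measured, and the counts were 6 in Vec cells, 5 in VHL cells and 7 for the line difference in deprived medium, with no call of a measured enzyme lost. The mitochondrial count in VHL cells was 2 with quantile normalization or without the dim genes, 1 with median centring, averaged probe sets or trend and robust moderation, and 0 to 1 with each array left out in turn. The enzymes were HARS2, higher, and LARS2, lower, and the cause was not tested. Deviations of same-numbered replicates correlated between -0.268 and 0.235 over 18 pairs (median 0.0526), and those of other replicates between -0.35 and 0.291 over 36 pairs (median -0.0179). Of 12 arrays 5 correlated best with their own number, and the labels do not say what the number marks, so the arrays were treated as unpaired. With the replicate number as a block, 10 cytosolic enzymes were called in Vec and 9 in VHL cells, and no call changed. No gene of the 27 was called for a difference of response under any alternative run, and no called change reversed its sign. Changes called in neither setting changed sign in some alternatives and are read as no direction. The element ending in T, TGATGNAAT, was found before the start of 1 of the 24 genes (4.17%), of 1.09% of all genes and of 0.732% of those on the array. Probe set signal over background is not known here, so small changes of dim probe sets such as those of RARS2 cannot be judged.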

Other observations

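The cytosolic and mitochondrial histidine enzymes HARS1 and HARS2 lie head to head on chromosome 5. Their RefSeq starts on opposite strands are 85 bases apart, and their promoter windows share 184 bases (chr5:140691321-140691504, GRCh38.p14). VHL cells had less HARS1 (-0.26, limma adjusted p = 0.000439) and more HARS2 (0.18, limma adjusted p = 0.00616) than Vec cells in deprived medium. Of all genes 47.2% were called in this comparison, 24.2% higher and 23% lower. A role of the shared stretch was not tested. In control medium HARS1 gave -0.23 (limma adjusted p = 0.00127) and HARS2 0.10 (limma adjusted p = 0.113). Neither gene was called on deprivation, and no match to the C/EBP-ATF response element was found in either window.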
